A study of Homo sapiens with 12 samples.

Results

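The collagen genes were followed through RNA sequencing of human lung cancer cell lines. They were taken as every gene of the count table whose symbol reads COL, a number, A and a number, which gave 43 genes of the 22506 listed. The 12 libraries came from 4 lines, named H1703, H1299, CHAGO and CALU in the labels. Each line was sampled once as parental cells, which the labels call adherent, once as tumor-initiating cells (TICs, cancer cells that can start a tumor), and once as TICs with a knockdown of PRKCI, the gene of protein kinase C iota. The sources used here do not say how TICs were grown or how PRKCI was lowered. Each line is 1 model, so the 4 lines serve as replicates of a state. A p-value sets the mean difference between states against how far the lines disagree about it.

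Collagens are the main structural proteins of the extracellular matrix, each built from 3 chains wound into a triple helix. Fibrillar collagens (types I, II, III, V, XI and others) form the ropes of connective tissue, and type IV collagens form the sheet of the basement membrane on which epithelium rests. Type VI makes beaded filaments, FACIT collagens (fibril-associated collagens with interrupted triple helices) sit on fibrils, and transmembrane collagens stay in the cell surface. Epithelial cells are known mainly for basement membrane chains and fibroblasts for types I and III, while tumor cells can express either.

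The libraries held 21.2 to 91.8 M counted reads (M for mega), and depth followed the line: H1703 and H1299 had at most 36.1 M in each of 6 libraries, CHAGO and CALU at least 63.8 M. PRKCI was 199 to 608 CPM in TICs and 23.2 to 58.1 CPM in knockdown TICs, lower in each line (edgeR log2 fold change −3.15, standard error 0.37, adjusted p = 0.0489). Levels are in CPM, counts per M reads after TMM scaling of the libraries, and in CPM per kb of coding length where genes are set against each other. Of 8 epithelial markers, CHAGO had 8 at 10 CPM or more in some library, CALU 4, H1299 2 and H1703 0, where EPCAM, CDH1, CLDN4 and CLDN7 were at 0. Of 6 squamous markers, KRT5, KRT6A, KRT14 and DSG3 were at 0 in H1703 and H1299. SOX2 was 6.09 to 38.8 CPM in H1299 and at most 3.38 CPM in H1703, and TP63 at most 0.23 CPM in both. In CHAGO, 4 of the 6 (TP63, KRT6A, DSG3 and SOX2) reached 10 CPM in some library. In CALU 1 did, TP63 at 45.2 CPM in TICs. The summed level of 12 fibroblast markers was 2604.5 to 3130.1 CPM in H1703, nearly all of it PDGFRA (2554 to 3076 CPM), 15.1 to 19.7 CPM in H1299, 159 to 231 CPM in CHAGO and 76.7 to 195 CPM in CALU. Endothelial markers summed to at most 48.0 CPM in CALU and 3.61 CPM in the other lines. The 6 leukocyte markers summed to as much as 809 CPM, nearly all of it CD68, a lysosomal protein abundant in macrophages, at 338 to 809 CPM in H1703, 264 to 530.4 CPM in H1299, 218 to 271 CPM in CALU and 0.090 to 145 CPM in CHAGO. Of the other 5, CD3E was at 0 in every library and none was above 4.06 CPM.

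Of the 43 collagen genes, 40 had a read in some library and 25 had enough reads to be tested. No read was found for COL6A5, COL9A1 and COL20A1. The 25 tested were 5 of 11 fibrillar genes, 6 of 6 type IV genes, 4 of 5 type VI genes, 4 of 10 FACIT genes, 2 of 3 short-chain network genes, 2 of 4 transmembrane genes, 1 of 2 multiplexins and COL7A1, the anchoring fibril collagen. The remaining gene, COL28A1, had 4 reads in all.

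Collagen levels followed the line. Summed over the 43 genes, the level in parental cells, TICs and knockdown TICs was 1382, 2148 and 687 CPM in CALU. The same sums were 181, 220 and 94.8 CPM in H1703. They were 108, 93.5 and 90.0 CPM in H1299, and 103, 49.5 and 48.1 CPM in CHAGO. Every CALU library thus lay above the 9 others. By state the sums were 444 ± 627 CPM in parental cells, 628 ± 1016 CPM in TICs and 230.1 ± 306 CPM after knockdown (mean ± SD, n = 4 each), with an SD above the mean in each state. Without CALU they were 131 ± 43.8, 121 ± 88.5 and 77.7 ± 25.7 CPM (SD, n = 3). In these bulk libraries a larger share of collagen-expressing cells and more RNA per cell cannot be told apart.

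**Figure D1:**
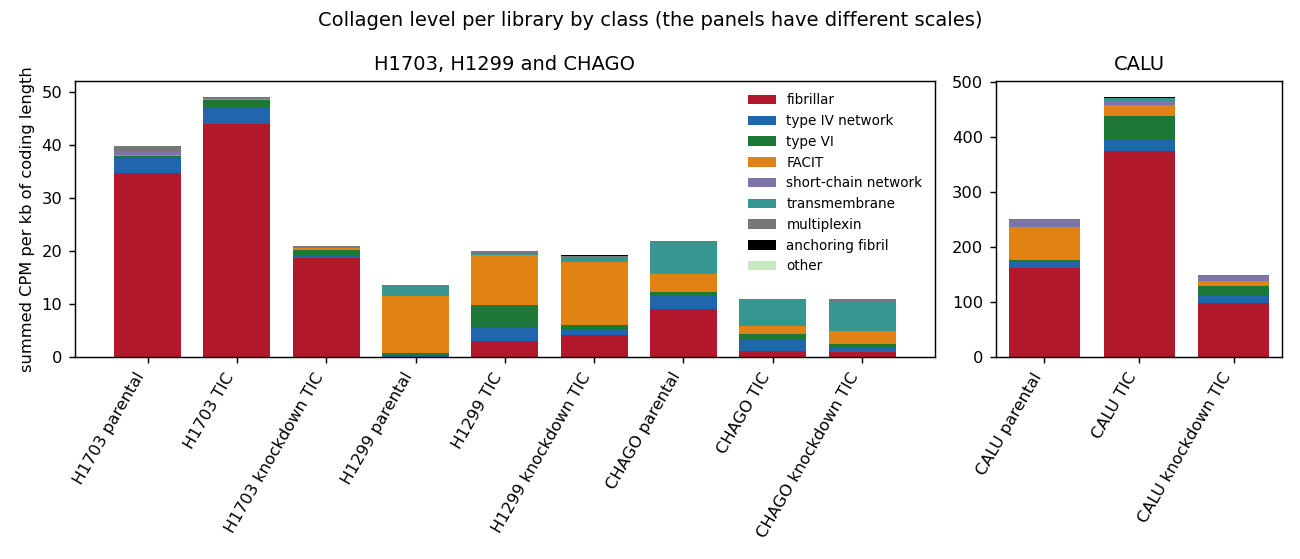
Summed level of the collagen genes in each library, in CPM per kb of coding length (vertical axis, starting at 0), stacked by collagen class; bars are single libraries, and CALU has its own scale. The CALU bars reach 250, 472 and 150 CPM per kb, against 11.03 to 48.98 in the other 9 libraries.

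The leading collagen differed between lines, and in CHAGO and H1299 also between states. In H1703 the gene of the fibrillar chain COL5A2 made up 87.3, 88.8 and 88.2% of the summed CPM per kb in the 3 states. In CALU the type I chain COL1A1 led with 49.8, 64.6 and 45.6%. In CHAGO the leading gene was COL3A1 in parental cells (33.7%), the main chain of loose connective tissue fibrils, and COL17A1 in TICs and knockdown TICs (45.4 and 48.7%), the transmembrane collagen of hemidesmosomes. In H1299 it was the FACIT chain COL12A1 in parental cells (74.2%). It was the FACIT chain COL14A1 in H1299 TICs (18.0%, just above COL6A1 at 17.7%) and the FACIT chain COL21A1 after knockdown (37.3%).

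Of the 25 tested genes, 10 (40.0%) had all 3 CALU libraries above the 9 libraries of the other lines. The same held for 6.45% of all 14008 genes tested. The 10 were COL1A1, COL1A2, COL5A1, COL8A1, COL13A1 and the type IV chains COL4A1, COL4A2, COL4A4, COL4A5 and COL4A6. For H1703 only COL5A2 stood above the rest (background 5.78%), for CHAGO only COL17A1 (background 8.5%) and for H1299 no tested collagen (background 3.89%), while COL4A2 stood below the rest in H1299 (background 2.51%). No tested collagen stood below the rest in H1703, CHAGO or CALU (background 6.42, 5.54 and 4.15%). The 3 libraries of a line share their cells, so these counts are descriptions without a test. The low-count filter also enters them. Each of the 10 had most of its reads in CALU. COL1A2 had 16429 of its 16449 reads there, COL5A1 38194 of 38261 and COL1A1 179792 of 180523. COL4A1 had 7733 of 9383. Without CALU, 16 collagens were tested. The 40.0% is therefore tied to how genes entered the test. COL8A1 had only 15 reads outside CALU, in H1299 knockdown TICs. COL11A1, COL14A1 and COL21A1, read mostly in H1299, did not pass the filter and were not counted. The CALU sum of the 12 fibroblast markers was 76.7, 142 and 195 CPM in parental cells, TICs and knockdown TICs, highest after knockdown, where its collagen sum was lowest. The markers did not share an order over the states. In CALU, 4 were highest in TICs, as the collagen sum was, with PDGFRB at 6.04, 9.38 and 2.76 CPM (at most 0.44 CPM in the other lines) and ACTA2 at 3.002, 7.69 and 0.68 CPM. Another 4 were highest after knockdown, with FAP at 3.76, 94.7 and 125 CPM, DCN at 0, 1.32 and 25.5 CPM and LUM at 0.24, 2.73 and 34.8 CPM. THY1 (21.8, 6.05 and 0.94 CPM) and FBLN1 (34.8, 7.97 and 0.099 CPM) were highest in parental cells, and PDPN and DPT were at 0. Of the 6 endothelial markers in CALU, PECAM1 was highest in TICs (2.59, 44.96 and 11.3 CPM), KDR lowest there (26.3, 2.37 and 6.81 CPM), VWF and TEK were at most 1.001 CPM and CDH5 and CLDN5 at 0. The part of such markers in the collagen level was not tested.

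**Figure D2:**
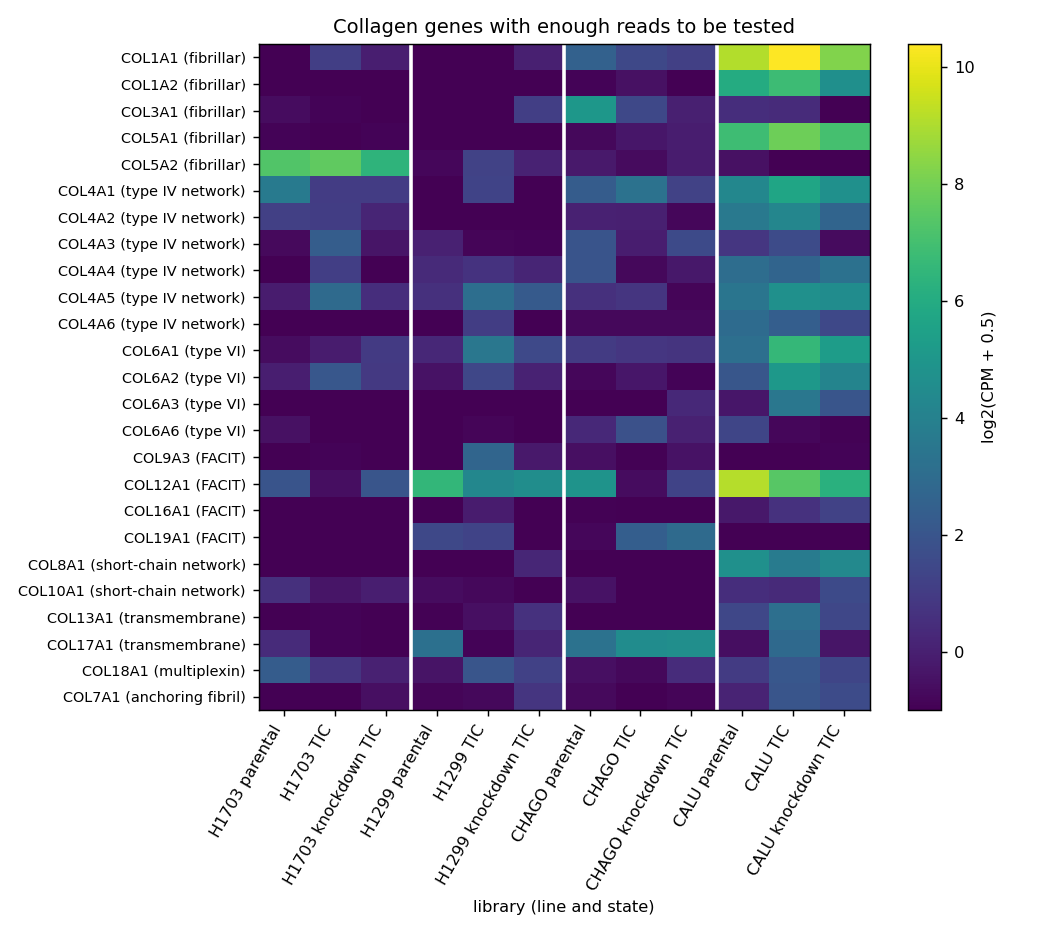
Levels of the 25 tested collagen genes (rows, grouped by class) in the 12 libraries (columns, grouped by line), as log2(CPM + 0.5) on the colour scale. The CALU columns are bright for COL1A1, COL1A2, COL5A1, COL8A1 and COL12A1, the H1703 columns for COL5A2.

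Type I collagen, the heterotrimer of COL1A1 and COL1A2 that forms most fibrils of bone and skin, was read almost wholly in CALU. COL1A1 measured 548, 1340.1 and 301 CPM in CALU parental cells, TICs and knockdown TICs. It measured 5.31, 2.25 and 1.76 CPM in CHAGO, 0, 1.67 and 0.46 CPM in H1703, and 0, 0 and 0.49 CPM in H1299. COL1A2 measured 63.4, 111 and 25.1 CPM in CALU and 0.045, 0.21 and 0 CPM in CHAGO. In CALU both chains were highest in TICs and lowest after knockdown. No COL1A2 read was found in H1703 or H1299 (6 libraries), which allows 0.0832 to 0.142 CPM (3 reads, before TMM scaling, counting error only).

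Across lines, COL1A1 differed by a log2 fold change of 0.87 between TICs and parental cells (edgeR adjusted p = 0.799) and by −0.97 after knockdown (adjusted p = 0.981). COL1A2 differed by 1.42 (standard error 0.88, edgeR adjusted p = 0.604) and by −3.01 (standard error 0.96, edgeR adjusted p = 0.980), and its reads came almost wholly from CALU. Without CHAGO, where TICs had 17 reads and knockdown TICs 0, these COL1A2 values were 0.74 and −2.06. Within CALU the COL1A1 level per kb was 8.06, 11.3 and 11.2 times that of COL1A2, although the type I trimer holds 2 chains of COL1A1 for 1 of COL1A2.

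Type V collagen, which seeds and limits the width of type I fibrils, was split between lines. Its chain COL5A1 measured 115, 231 and 128 CPM in CALU, in parental cells, TICs and knockdown TICs, and at most 0.45 CPM in the other 9 libraries. Its chain COL5A2 measured 156, 196 and 83.1 CPM in H1703 and at most 1.90 CPM in the other 9 libraries. The H1703 libraries held 4289, 4345 and 2153 reads of COL5A2 beside 1, 0 and 1 reads of COL5A1, and the CALU libraries held 9972, 19120 and 9102 reads of COL5A1 beside 18, 0 and 0 of COL5A2. No library thus held much of both chains, and the further chain COL5A3 had 8 reads in all. Neither gene differed detectably between states: COL5A1 had a log2 fold change of 1.01 in TICs against parental cells (standard error 0.60, edgeR adjusted p = 0.572) and COL5A2 of −0.09 (standard error 0.98, adjusted p = 0.985). After knockdown the log2 fold changes were 0.0054 for COL5A1 (edgeR adjusted p = 0.999) and −0.64 for COL5A2 (adjusted p = 0.987).

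**Figure D3:**
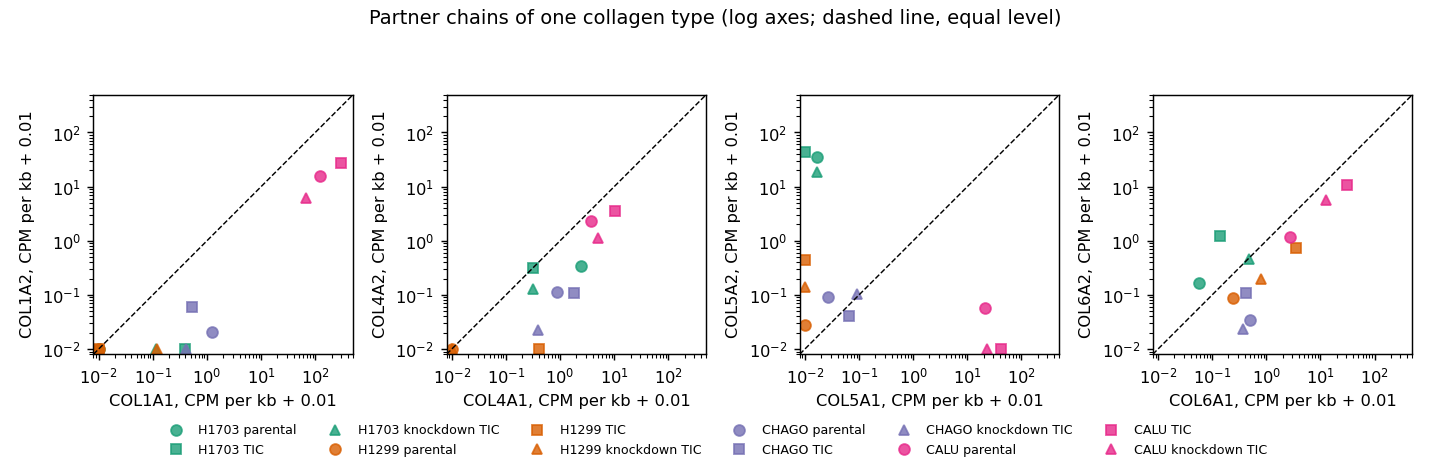
Partner chains of collagen types I, IV, V and VI against each other in the 12 libraries, in CPM per kb of coding length + 0.01 on log axes; the dashed line marks equal levels, colours give the line and shapes the state. For type V the H1703 points lie at the top left and the CALU points at the bottom right, and for type I the CALU points alone lie high on both axes.

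The other fibrillar collagens were sparse. COL3A1 measured 32.3 CPM in CHAGO parental cells, 2.29 CPM in CHAGO TICs and at most 1.63 CPM in the other libraries (2156 of its 2568 reads came from the CHAGO parental library). COL11A1, a cartilage chain, had 420 reads in H1299 TICs, 411 in H1299 knockdown TICs and 0 in the 10 other libraries, H1299 parental cells among them. COL2A1, the main cartilage collagen, had 93 and 73 reads in CHAGO parental cells and knockdown TICs and 0 elsewhere. COL11A2, COL24A1 and COL27A1 stayed at or below 1.25 CPM.

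Type IV collagen chains assemble into the basement membrane network as COL4A1 with COL4A2, as COL4A3, COL4A4 and COL4A5, or as COL4A5 with COL4A6. COL4A1 measured 18.9, 51.9 and 25.4 CPM in CALU, 11.9, 1.53 and 1.54 CPM in H1703, 4.43, 9.18 and 1.88 CPM in CHAGO, and 0, 1.97 and 0 CPM in H1299. COL4A2 measured 11.7, 18.0 and 5.83 CPM in CALU, 1.71, 1.58 and 0.62 CPM in H1703, and 0.53, 0.51 and 0.066 CPM in CHAGO, with 0 reads in H1299. For both chains the CALU TIC library was the highest of the 12.

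COL4A1 and COL4A2 are transcribed away from each other from a shared stretch, and that stretch is shown because the pair is the basement membrane heterotrimer. The 126 bases between their RefSeq starts (GRCh38.p14, chr13:110307158-110307283, COL4A2 strand) hold 1 CCAAT and 1 GGGCGG, in capitals:
COL4A1-COL4A2: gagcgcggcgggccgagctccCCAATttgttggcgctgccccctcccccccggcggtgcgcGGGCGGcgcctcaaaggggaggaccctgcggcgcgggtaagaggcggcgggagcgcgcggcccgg
Searched on both strands, CCAAT occurs in 21.1% and GGGCGG in 34.6% of the 126 bases before the start of all 35116 RefSeq promoters, and TATAAA, absent here, in 5.87%.

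With that shared stretch, the chains still differed in balance. The ratio of COL4A1 to COL4A2 in CPM per kb ran from 0.996 in H1703 TICs to 18.3 in CHAGO TICs, with a median of 4.46, over the 7 libraries with at least 20 reads of each. In the 3 CALU libraries, which had the most reads, it was 1.65, 2.95 and 4.46 in parental cells, TICs and knockdown TICs.

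COL4A5 was the type IV chain with the same order of TICs against both other states in every line, although no difference passed the test. It measured 0.40, 7.16 and 0.93 CPM in H1703, in parental cells, TICs and knockdown TICs. It measured 0.99, 8.10 and 4.10 CPM in H1299, 0.98, 1.17 and 0.053 CPM in CHAGO, and 10.3, 26.1 and 22.6 CPM in CALU. The TIC library was the highest of the 3 in 4 of 4 lines, though by little in CHAGO before knockdown and in CALU after it. Against parental cells its log2 fold change in TICs was 2.01 (standard error 1.02, edgeR adjusted p = 0.479), and after knockdown −1.68 (standard error 0.97, edgeR adjusted p = 0.980). The value in TICs was 1.25 without H1703 and 2.95 without CHAGO. Its partner COL4A6 measured 7.38, 4.79 and 2.27 CPM in CALU and at most 1.61 CPM elsewhere.

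As a class, the 6 type IV genes had a log2 fold change above 0 in TICs against parental cells (median 0.97) and below 0 in knockdown TICs against TICs (median −2.13). The background over all 14008 genes was 48.7% above 0 in the first comparison and 50.9% below 0 in the second. None of the 6 passed an adjusted p of 0.05 in edgeR or in DESeq2. The comparisons share the TIC libraries, so a high TIC value enters both. The first count was 4 of 6 without H1703, without H1299, with limma voom and with no line term, and 3 of 5 tested without CALU. The second was 5 of 6 without H1703, with limma voom and with no line term, and 5 of 5 tested without CALU. After knockdown the log2 fold change was −1.85 for COL4A2 (standard error 0.83) and −2.60 for COL4A1 (standard error 1.36), with edgeR adjusted p = 0.980 for both. The COL4A1 value was −1.33 without H1299 and −3.76 without CALU. COL4A3 and COL4A4 ranged from 0.044 to 4.68 CPM and from 0 to 9.05 CPM.

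Type VI collagen, a microfibril collagen at the border of basement membrane and connective tissue, held the collagen with the smallest p value. COL6A2 measured 0.47, 3.74 and 1.35 CPM in H1703, in parental cells, TICs and knockdown TICs. It measured 0.23, 2.20 and 0.57 CPM in H1299, 0.075, 0.31 and 0.040 CPM in CHAGO, and 3.59, 33.1 and 17.02 CPM in CALU. In each of the 4 lines the TIC library was the highest of the 3. The CHAGO values rest on 5, 25 and 3 reads. The log2 fold change in TICs was 2.84 (standard error 0.66, 7.14-fold), with an edgeR adjusted p of 0.197, which missed the threshold, while DESeq2 gave an adjusted p of 0.000441. After knockdown it was −1.65 (standard error 0.62, edgeR adjusted p = 0.980, DESeq2 adjusted p = 0.412), lower in 4 of 4 lines, in a comparison that shares the TIC libraries.

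COL6A1, the chain that pairs with COL6A2, measured 8.51, 96.2 and 38.7 CPM in CALU, 0.70, 10.98 and 2.38 CPM in H1299, 0.15, 0.41 and 1.43 CPM in H1703, and 1.49, 1.25 and 1.14 CPM in CHAGO. It was higher in TICs than in parental cells in 3 of 4 lines, with a log2 fold change of 2.28 (standard error 0.89, edgeR adjusted p = 0.351). That value was 1.495 without H1299 and 3.32 without CHAGO. The long partner chain COL6A3 measured 0.31, 10.9 and 3.48 CPM in CALU and had reads in 1 other library, CHAGO knockdown TICs (55 reads). Its level per kb was at most 0.0367 of that of COL6A1 in the CALU libraries. DESeq2 alone called COL6A3 in knockdown TICs against parental cells (adjusted p = 0.0264, edgeR adjusted p = 0.509). COL6A6, a chain of a separate gene cluster, had at most 3.10 CPM, in CHAGO TICs.

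The 250 bases before the RefSeq start of COL6A2 (GRCh38.p14, chr21:46097862-46098111, plus strand) are shown beside those of COL12A1 (chr6:75206054-75206303, minus strand), the collagen with the smallest p value in the other direction. Capitals mark, on either strand, the same CCAAT box, the GC box GGGCGG and the TATA box TATAAA, and no 2 matches overlap:
COL6A2: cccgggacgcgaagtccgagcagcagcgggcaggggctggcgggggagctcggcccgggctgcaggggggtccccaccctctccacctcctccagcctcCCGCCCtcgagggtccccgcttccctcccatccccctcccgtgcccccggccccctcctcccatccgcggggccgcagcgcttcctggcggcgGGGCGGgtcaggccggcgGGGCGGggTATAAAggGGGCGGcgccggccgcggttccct
COL12A1: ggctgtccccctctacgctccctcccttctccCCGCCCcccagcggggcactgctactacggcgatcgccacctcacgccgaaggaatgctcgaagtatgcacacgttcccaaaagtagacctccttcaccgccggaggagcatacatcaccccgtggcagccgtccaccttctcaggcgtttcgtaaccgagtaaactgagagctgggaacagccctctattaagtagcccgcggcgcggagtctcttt
The COL6A2 window holds 4 matches of GGGCGG over both strands and 1 TATAAA, and the COL12A1 window 1 GGGCGG and no TATAAA. In windows of this length GGGCGG occurs in 42.6%, TATAAA in 10.7% and CCAAT in 32.0% of all RefSeq promoters. These matches are letters and not measured binding.

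COL12A1, a FACIT chain that coats type I fibrils and is known from tissue under tension, was lower in TICs than in parental cells of each line. It measured 551, 175 and 74.3 CPM in CALU, in parental cells, TICs and knockdown TICs. It measured 93.5, 19.0 and 23.7 CPM in H1299, 28.6, 0.15 and 1.97 CPM in CHAGO, and 3.35, 0.18 and 3.55 CPM in H1703. The parental library was the highest of the 3 in every line but H1703, where knockdown TICs were slightly above it. The log2 fold change in TICs was −3.26 (standard error 1.04, edgeR adjusted p = 0.281), lower in 4 of 4 lines, while DESeq2 gave an adjusted p of 0.00419. Without CHAGO, which had the largest difference, the log2 fold change was −2.15 (edgeR adjusted p = 0.294), and without CALU it was −4.46. Knockdown TICs stood 1.06 above TICs on the log2 scale (edgeR adjusted p = 0.980) and 2.20 below parental cells (standard error 1.02, edgeR adjusted p = 0.479).

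**Figure D4:**
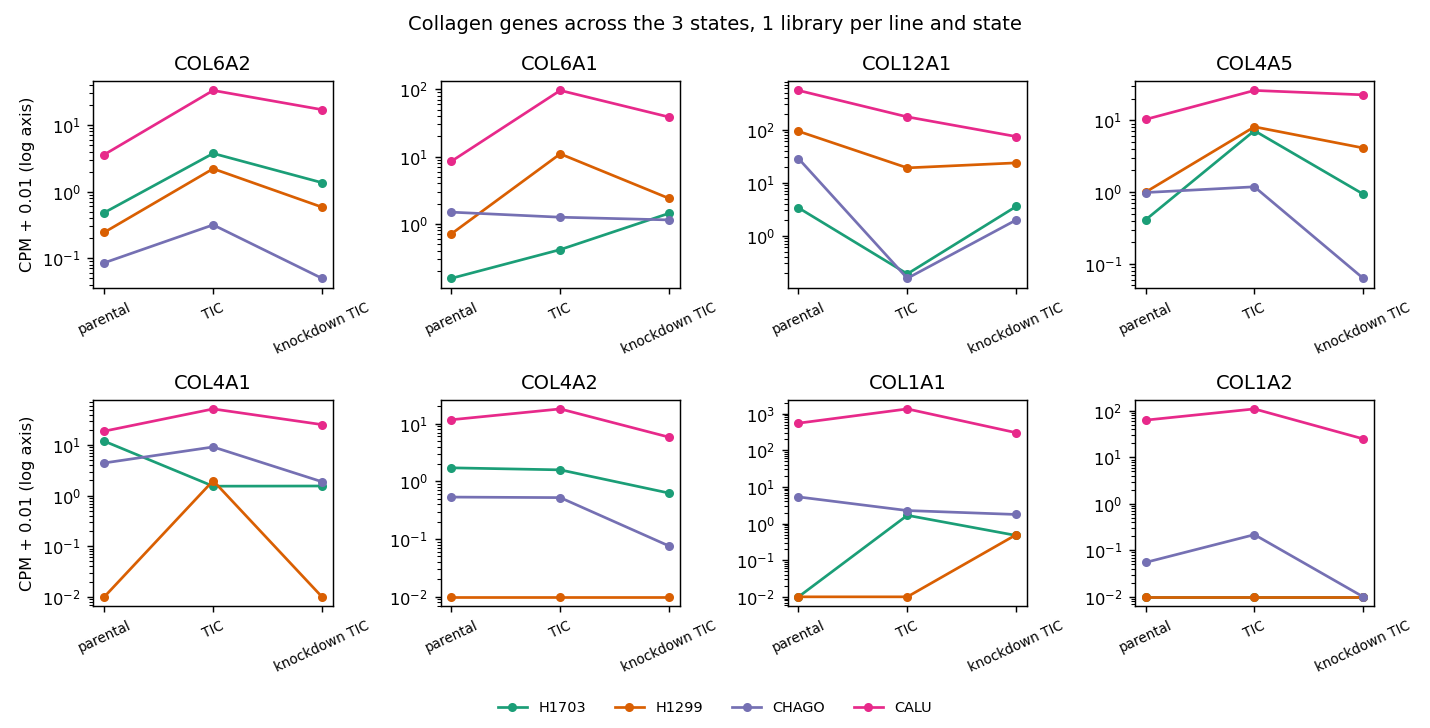
CPM + 0.01 on a log axis for 8 collagen genes across the 3 states, a coloured line for each cell line and a point for each single library; points at 0.01 have no reads. COL6A2 and COL4A5 peak in TICs in 4 of 4 lines, and COL12A1 is lower in TICs than in parental cells in 4 of 4 lines.

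The other FACIT genes were found mostly in 1 or 2 lines each. COL14A1, which binds fibril surfaces, had 603 and 237 reads in H1299 TICs and knockdown TICs, 102 in CALU TICs, 12 in CHAGO parental cells and 0 in the 8 others. COL21A1 had 468 of its 472 reads in H1299 knockdown TICs. COL19A1, a chain of basement membrane zones, measured 0.075, 4.83 and 7.11 CPM in CHAGO, 2.24, 1.97 and 0 CPM in H1299, and 0 CPM in H1703 and CALU. COL9A3, a cartilage chain, had 188 of its 233 reads in H1299 TICs. COL16A1 stayed at or below 1.90 CPM, and COL9A2 and COL22A1 had 67 and 46 reads in all.

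Together with COL11A1, the genes COL14A1 and COL9A3 had no read in H1299 parental cells and 13.6, 19.5 and 6.07 CPM in H1299 TICs. After knockdown they measured 18.1, 10.5 and 0.35 CPM. The parental library, the deepest of the 3 of this line at 36.1 M reads, allows up to 0.0832 CPM unseen (3 reads, before TMM scaling). With 1 library a state, this difference within H1299 has no replicate check. Between the same parental and TIC libraries COL17A1 fell from 8.74 to 0.032 CPM and COL12A1 from 93.5 to 19.0 CPM. The genes were picked after their values were seen, and the share of all genes with such a change was not counted.

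COL8A1, a short-chain network collagen of vessel walls and the cornea, was found in CALU at 25.7, 13.0 and 19.997 CPM, in parental cells, TICs and knockdown TICs. It had 15 reads in H1299 knockdown TICs and 0 in the 8 others. Its log2 fold change after knockdown was 3.18 (standard error 1.89, edgeR adjusted p = 0.980), and 0.57 without H1299. COL8A2 and COL10A1, the collagen of hypertrophic cartilage, reached at most 2.23 and 2.42 CPM.

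Among the transmembrane collagens, COL17A1 measured 9.18, 22.5 and 24.1 CPM in CHAGO. This line had the highest sum of the 8 epithelial markers (1671 to 2222 CPM). The marker KRT19 was higher in CALU (237, 151 and 112 CPM) than in CHAGO (9.23, 70.5 and 51.8 CPM). A link between COL17A1 and these markers was not tested. COL17A1 measured 8.74, 0.032 and 0.62 CPM in H1299, 0.16, 6.86 and 0.28 CPM in CALU, and 0.84, 0.045 and 0 CPM in H1703. It was thus higher in TICs than in parental cells in CHAGO and CALU and below parental cells in H1299 and H1703 (log2 fold change −1.47, edgeR adjusted p = 0.862). COL13A1, found at cell adhesion sites, measured 2.16, 8.32 and 2.21 CPM in CALU and at most 1.06 CPM elsewhere. COL25A1 had 540 of its 565 reads in CHAGO parental cells, and COL23A1 had 14 reads in all. The multiplexin COL18A1, the source of endostatin, was detected in each library at 0.098 to 4.55 CPM, and COL15A1 reached 1.28 CPM. COL7A1, which anchors epidermis to dermis, measured 0.59, 3.53 and 2.52 CPM in CALU and at most 1.19 CPM elsewhere.

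The comparison of TICs with parental cells asks what sets the tumor-initiating state apart. No collagen passed an adjusted p of 0.05 in edgeR, where 0.0286% of all tested genes did. At an unadjusted p under 0.05 there were 3 of 25 (COL6A2 and COL6A1 higher, COL12A1 lower), beside 11.8% of all tested genes, a share near the background. DESeq2 called COL6A2 and COL12A1, beside 3.63% of all genes. The log2 fold change was above 0 for 18 of 25 collagens and below 0 for 7 (48.7 and 51.3% of all genes), with medians of 0.67 and −0.02. Without H1299 it was above 0 for 13 of 27, with a median of −0.15. COL4A5 and COL6A2 were higher in 4 of 4 lines (background 8.32%) and COL10A1 and COL12A1 lower (background 8.97%). The median difference of log2(CPM + 0.5) over the 25 genes was 0.84 in CALU, 0.11 in H1299, 0.00 in H1703 and −0.02 in CHAGO.

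The comparison of knockdown TICs with TICs asks what depends on PRKCI in that state. No collagen passed in edgeR (0.0143% of all tested genes did) or in DESeq2 (0.0785% did). At an unadjusted p under 0.05 there were 2 of 25, COL1A2 and COL6A2, both lower, beside 4.28% of all genes. The log2 fold change was below 0 for 17 of 25 and above 0 for 8 (50.9 and 49.1% of all genes), with medians of −0.97 and −0.01. COL4A5 and COL6A2 were lower in 4 of 4 lines (background 7.14%), and none was higher in 4 of 4 (background 7.23%). The median difference of log2(CPM + 0.5) was −0.93 in CALU, −0.18 in H1299 and 0.00 in H1703 and CHAGO.

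Between knockdown TICs and parental cells no collagen passed in edgeR (0.0357% of all genes did), none had an unadjusted p under 0.05 (10.7% of all genes did) and DESeq2 called COL6A3 (2.82% of all genes). Of 25, 12 were above 0 and 13 below (47.1 and 52.9% of all genes), with a median of −0.09. None was higher or lower in 4 of 4 lines (background 8.1 and 9.11%). The parental libraries are shared with the comparison of TICs with parental cells.

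The machinery that makes and reads collagen was taken as 7 lists. Of 14 hydroxylases, glycosyltransferases and their partners, 11 had a log2 fold change above 0 in TICs (median 0.61), and 12 of 14 had one below 0 after knockdown (median −0.49). None passed in edgeR in either comparison. The prolyl hydroxylase subunits P4HA2 and P4HA1, which stabilise the helix, had log2 fold changes of 2.23 and 1.66 in TICs (edgeR adjusted p = 0.1002 and 0.183), and DESeq2 called both and PLOD1, 3 of 14, beside 3.63% of all genes. PLOD1, a lysyl hydroxylase that prepares crosslinks, was 1.35 higher in TICs (edgeR adjusted p = 0.240) and 1.08 lower on the log2 scale after knockdown (edgeR adjusted p = 0.980).

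Of 9 tested collagen receptors, 9 had a log2 fold change above 0 in TICs (median 2.29) and 7 of 9 had one below 0 after knockdown (median −0.48). The discoidin receptor DDR1, a tyrosine kinase that binds collagen, was higher in 4 of 4 lines in TICs, as were 8.32% of all genes (log2 fold change 2.51, edgeR adjusted p = 0.102), and lower in 4 of 4 after knockdown, as were 7.14% (log2 fold change −1.05, adjusted p = 0.980). ITGA2, the alpha chain of a collagen-binding integrin, was at 342 CPM on average in TICs and 81.0 CPM in parental cells (log2 fold change 2.51, edgeR adjusted p = 0.188). Its average after knockdown was 740.5 CPM, with 2669.6 CPM in CALU, and against TICs 2 lines were higher and 2 lower. DESeq2 called DDR1 and ITGA2 in TICs, 2 of 9, beside 3.63% of all genes, and no receptor passed in edgeR (0.0286% of all genes did).

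Of 13 basement membrane partners, 12 had a log2 fold change above 0 in TICs (median 1.29) and 9 had one below 0 after knockdown (median −0.21). The laminin chains LAMA4, LAMB1 and LAMC1 had the smallest p values in TICs (log2 fold changes 4.51, 1.01 and 0.71, edgeR adjusted p = 0.231, 0.270 and 0.333). Of 10 folding and secretion genes, 7 were above 0 in TICs (median 0.32) and 4 below 0 after knockdown (median 0.09). Of 13 tested genes of propeptide cleavage and crosslinking, 9 were above 0 in TICs (median 0.16) and 8 below 0 after knockdown (median −0.17). Of 5 tested collagenases and gelatinases, 4 were above 0 in TICs (median 1.05) and 2 below 0 after knockdown (median 1.97). The membrane protease MMP14 stood 1.69 higher in TICs on the log2 scale (edgeR adjusted p = 0.290) and had a log2 fold change of −1.01 after knockdown (edgeR adjusted p = 0.980). The interstitial collagenase MMP1 had one of 2.89 after knockdown (standard error 1.19, edgeR adjusted p = 0.980), with 974 CPM in CALU TICs and 17829.7 CPM in CALU knockdown TICs. Against parental cells DESeq2 called MMP1 in knockdown TICs (adjusted p = 0.0222, edgeR adjusted p = 0.351), beside 2.82% of all genes. There MMP1 was higher in 3 lines and lower in 1, H1703. From the other lists DESeq2 also called ITGA2, P4HA2, P4HA1 and DDR1 in that comparison (DESeq2 adjusted p = 3.01e-05, 0.000539, 0.019 and 0.019). Their edgeR adjusted p values were 0.171, 0.161, 0.232 and 0.237. ITGA2, P4HA2, P4HA1 and DDR1 were each higher than in parental cells in 4 of 4 lines (background 8.1%). Only LUM and OGN of 6 small leucine-rich proteoglycans had enough reads, and 1 was above and 1 below 0 in each comparison. No gene of these lists passed in edgeR in either comparison, and the background shares above and below 0 are those given for all genes.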

How the data were processed

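The authors deposited a table of raw counts, whole reads per gene and library, and a table of mode-normalized values, a score that equals the deposited count times 1 factor per library, rounded. CASAVA 1.4, TopHat 1.4, HTSeq 0.5.3p3 and build hg19 are named without roles, per the submitters' processing notes. The sources used here give neither strand nor annotation, so reads of overlapping or antisense genes cannot be told apart. Columns were joined to samples by title. The column of the CALU knockdown library lacks a letter of its title.

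Counts were analysed in R 4.3.3 with edgeR 4.0.16: filterByExpr kept 14008 genes, TMM factors scaled the libraries, and a robust quasi-likelihood model with terms for state and line was fitted to 12 libraries (6 residual degrees of freedom, common dispersion 0.489). Two-sided p-values were adjusted by Benjamini-Hochberg across those genes, with a threshold of 0.05. A standard error is the size of the log2 fold change divided by sqrt(F). The line term rests on the labels. After removing state means, same-line libraries had correlations of 0.553 to 0.760 across genes (12 pairs) and others of −0.414 to −0.0601 (36 pairs). Removing the mean of the 4 lines itself pushes the correlations of other-line pairs below 0, so their sign carries no weight. On simulated counts for 14008 genes, TICs against parental cells recovered 2, 44, 82 and 74% of genes changed by 1, 2, 3 and 4 on the log2 scale (50 each), with 9 false calls. The changed genes were drawn only from those with an average log2 CPM above 2. These shares therefore do not cover many of the tested collagens. COL10A1 (at most 2.42 CPM) and COL16A1 (at most 1.90 CPM) were of lower level. So were the type IV chains COL4A3, COL4A4 and COL4A6, with state means of at most 1.94, 3.00 and 1.87 CPM. Whether a state's libraries came from separate cultures is not given beyond the line.

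Alternatives were DESeq2 1.42.0, limma 3.58.1 voom, limma on log2(mode-normalized value + 1), other scalings and filters, no line term, fewer lines and an adjusted p of 0.10. Coding lengths are the longest coding sequence per gene in GENCODE release 29, without UTRs. No protein table was used. RefSeq promoters matched 31 of 43 members. COL1A1, COL1A2 and COL6A1 had no entry. EMID2, an older name of a further collagen, falls outside the symbol rule.

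The members and gene lists were chosen with earlier results of these data known. The rule for description in every library took members with at least 100 CPM in any library and any called. It also took the 6 of smallest p in TICs against parental cells and in knockdown TICs against TICs. For COL5A1 and COL5A2 the libraries outside the leading line are given as an upper bound only. From each other list the rule takes any gene called and up to 3 of smallest p, and not every gene it takes is printed. Members named for reads in 1 line were chosen after their values were seen.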

Additional observations from a re-analysis of the deposited data

Results flagged for a closer look

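Within a state, 1 of the 4 libraries stood far from the other 3 for 5 of the 11 collagens taken by the rule for description, on log2(CPM + 0.5) by Dixon's ratio. Chance alone marks about 1 in 20 independent groups, and 11 of 36 were marked. These rates cannot be compared. Some members were chosen for at least 100 CPM in any library, and the same lines recur in each state. CALU was the high library for COL1A1 after knockdown (301 CPM), for COL1A2 in parental cells, TICs and knockdown TICs (63.4, 111 and 25.1 CPM), for COL5A1 in the same states (115, 231 and 128 CPM) and for COL8A1 in parental cells and TICs (25.7 and 13.0 CPM). H1703 was the high library for COL5A2 in parental cells and after knockdown (156 and 83.1 CPM). The summed collagen level was not marked in any state.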

How the results depend on the processing

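At an adjusted p of 0.05, 0 collagens were called in each comparison by edgeR, by limma voom and by limma on the mode-normalized values. In edgeR alone the count was also taken at 0.10, under the other scalings and filters and without each line, and was 0 each time. DESeq2 called 2 in TICs against parental cells, 0 after knockdown and 1 in knockdown TICs against parental cells. For the 12 gene results with the smallest p, 167 of 169 alternatives kept direction and side of the threshold, and 2, both DESeq2 in TICs against parental cells, passed it. None of the 12 passed in the main fit, and fits with fewer lines have less power. Keeping that side was thus likely beforehand and is no measure of stability. The median log2 fold change over tested collagens moved more, and the number of members tested ran from 16 to 31 without each line. In TICs against parental cells (0.67) it was 1.11 with the 5 CPM filter, 2.48 in H1703 and H1299, 0.0287 in CHAGO and CALU, 0.0377 with only the compared groups, and −0.15 to 1.25 without each line. After knockdown (−0.97) it was −0.45 in CHAGO and CALU and −1.40 to −0.54 without each line. In knockdown TICs against parental cells (−0.09) it was −0.73 with the 1 CPM filter, −0.68 with the 5 CPM filter, 0.036 with no filter, −0.26 in H1703 and H1299, −0.42 in CHAGO and CALU, −1.22 with only the compared groups, −0.59 in DESeq2, 0.23 with mode-normalized values, and −0.81 to 0.0893 without each line. The cause was not tested.

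Without the replicate block for line the medians were 0.80, −1.05 and −0.26 in that order, with 0 collagens called. Mean summed levels moved by less than the spread between lines under other scalings. Low counts kept 18 of 43 genes from being tested.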
